A study of Mus musculus with 6 samples.

Results

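The 8 genes *Vamp1*, *Vamp2*, *Vamp3*, *Snap25*, *Stx1a*, *Syt1*, *Syp* and *Syn1*, which encode proteins of the synaptic vesicle and of the SNARE machinery that fuses it, were followed through the cell types of the neonatal mouse cortex with and without *Fmr1*. They were taken by symbol from the 17418 genes of the UMI count table (a UMI, or unique molecular identifier, marks a single captured transcript), and all 8 were present. InDrop single-cell RNA-seq had been made from the cortex of both hemispheres, dissociated with papain, of 3 WT mice (FVB.129P2-Pde6b+ Tyrc-ch/AntJ) and 3 *Fmr1*-KO mice (FVB.129P2-Pde6b+ Tyrc-ch Fmr1tm1Cgr/J) of both sexes at P5, the 5th postnatal day. The knockout is constitutive, so every cell type of a *Fmr1*-KO mouse carries it, and both strains share the FVB background with the *Pde6b* and *Tyr* alleles in their names. WT 1, *Fmr1*-KO 1 and *Fmr1*-KO 2 were made with V2 beads in a first batch, and WT 2, WT 3 and *Fmr1*-KO 3 with V3.8 beads in a second, so the bead version and the batch cannot be told apart.

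SNARE proteins drive membrane fusion. A vesicle R-SNARE (a VAMP, or synaptobrevin) zips into a bundle with the Q-SNAREs of the target membrane, syntaxin-1 and SNAP-25, and the calcium sensor synaptotagmin-1 couples this to the arrival of an action potential. Synaptophysin is an abundant membrane protein of the same vesicles, and synapsin-1 ties them to each other and to actin in the reserve pool. In the cortex these genes are switched on as neurons leave the cell cycle and form synapses, whereas VAMP3 (cellubrevin) serves recycling endosomes and secretion in most cells of the body.

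After 1113 doublets had been left out, 17280 cells in 18 deposited subtypes remained, of which 4139 were neurons. Each mouse gave between 7909181 and 20629134 UMIs. *Fmr1* stood at 68.4, 74.1 and 72.5 CPM (counts of a gene scaled to the total of the cells summed) over all cells of WT 1, 2 and 3 and at 17.2, 19.9 and 16.1 CPM in *Fmr1*-KO 1, 2 and 3 (log2 fold change -2.05, SE 0.11, FDR 0.00637 with edgeR's quasi-likelihood test). The counted tags lie at transcript 3′ ends, so they give the level of the remaining transcript and do not read the disrupted part of the gene. Of the 15463 distinct cell barcodes, 2231 occurred in more than 1 of the 17 libraries. Several libraries were aliquots of the cells of 1 mouse, so the mouse was taken as the replicate throughout.

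Of the neuron subtypes, all but the ganglionic cells (dividing inhibitory precursors) were checked against their markers. In ganglionic cells the 10 markers of dividing cells summed to 7502 to 9925 CPM in WT and 8583 to 9314 CPM in *Fmr1*-KO mice. In excitatory neurons *Nrgn* reached 3284 CPM and *Slc17a7* 175 CPM, in interneurons *Gad1* 364 CPM and *Gad2* 523 CPM, in CR (Cajal-Retzius) cells *Reln* 11879 CPM, and in SVZ (subventricular zone) cells *Eomes* 751 CPM. Some markers went against the labels. *Sst*, a marker of an interneuron class, stood at 155 CPM in the excitatory subtype and 65.2 CPM in interneurons, and *Gad2* reached 202 CPM in the excitatory subtype. *Slc17a6* and *Tbr1* were lower in excitatory neurons (101 and 99.7 CPM) than in CR cells (605 and 404 CPM). *Fezf2* stood at 110 CPM in excitatory neurons and 117 CPM in Astrocytes_2. *Dlx2* stood at 658 CPM in interneurons and 870 CPM in ganglionic cells, and *Npy* at 65.2 CPM in interneurons and 66.2 CPM in ependymal cells. The 9 interneuron markers summed to 931, 2140 and 1032 CPM in the excitatory cells of WT 1, *Fmr1*-KO 1 and *Fmr1*-KO 2, the V2 mice, and to 266, 235 and 177 CPM in those of WT 2, WT 3 and *Fmr1*-KO 3. Excitatory cells also differed in depth, with a median between 976 and 2005 UMIs per cell in 4 mice and of 8588 and 5890 UMIs in WT 3 and *Fmr1*-KO 3.

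In the genome (mm10, GENCODE vM21) the R-SNARE genes lie at chr6:125215551-125245964 (*Vamp1*, + strand), chr11:69088490-69092384 (*Vamp2*, +) and chr4:151047300-151057963 (*Vamp3*, -). The Q-SNARE genes lie at chr2:136713453-136782428 (*Snap25*, +) and chr5:135023482-135051100 (*Stx1a*, +), the calcium sensor gene at chr10:108497650-109010982 (*Syt1*, -), and the other 2 at chrX:7638471-7653256 (*Syp*, +) and chrX:20860511-20921004 (*Syn1*, -). These spans run over the whole gene, exons and introns included. *Vamp3* lies inside *Camta1* on the same strand, and *Syn1* and *Vamp1* overlap genes of the opposite strand (*Timp1* and *Araf*, *Tapbpl* and *Cd27*), and *Syt1* holds the small gene *Gm5136* on its own strand (136 UMIs in the table), so the counts of these 4 members are less certain. *Syp* and *Snap25* also overlap genes of the opposite strand, *Gm14703* over the 3′ end of *Syp* and *Gm14053* inside *Snap25*. Neither of these was among the counted genes, and their effect on the counts was not tested.

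The promoter of *Syn1* is shown because the gene is a textbook target of REST, a repressor that binds the RE1 element and keeps neuronal genes silent in other cells, and because it was the member with the lowest level in microglia after *Vamp1* (below). It is the RefSeq sequence (GRCm38.p6) of chrX:20920869-20921168 on the minus strand, 250 bases before to 50 after the transcription start, with the left part of the RE1 element (TTCAGCACC) and a cyclic AMP response element (TGACGTCA) in capitals.
*Syn1*: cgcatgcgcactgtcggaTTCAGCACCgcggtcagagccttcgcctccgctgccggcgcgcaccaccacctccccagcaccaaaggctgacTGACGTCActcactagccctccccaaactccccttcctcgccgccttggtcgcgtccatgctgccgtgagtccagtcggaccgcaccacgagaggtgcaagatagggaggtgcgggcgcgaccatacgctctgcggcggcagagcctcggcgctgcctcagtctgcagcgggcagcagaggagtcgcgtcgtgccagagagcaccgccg
Searched on both strands, TTCAGCACC was found in 0.371% and TGACGTCA in 1.79% of all 32851 promoter windows of this length. The windows of *Vamp1*, *Stx1a*, *Syp* and *Syt1* (2 windows) held neither run of letters, and those of *Vamp2*, *Vamp3* and *Snap25* were not in the table. A match describes these letters and is not a measured binding site.

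Among the R-SNAREs, *Vamp2* was above *Vamp3* in excitatory neurons, interneurons, CR and SVZ cells, and *Vamp3* was above *Vamp2* in endothelial cells, pericytes and microglia. Levels are CPM of UMIs summed per mouse and cell type, for mice with at least 10 cells of the type and for the 15 types with at least 3 such mice, and UMIs are 3′ tags, which are not scaled by gene length. *Vamp2* stood at 562 ± 94.0 CPM in CR cells (SD, n = 5 mice) and 527 ± 54.0 CPM in excitatory neurons (n = 6), followed by SVZ cells (326 ± 139, n = 4) and interneurons (306 ± 45.5, n = 6). Oligodendrocytes (179 ± 78.8 CPM) and both astrocyte subtypes (151 ± 54.8 and 136 ± 38.3) came next, and microglia (51.0 ± 27.8) and endothelial cells (50.6 ± 27.7) were at the low end. The ranges over mice of each pair of neighbours in this order overlapped, while every mouse's excitatory neurons were above its interneurons: the lowest excitatory value was 441 CPM and the highest interneuron value 349 CPM.

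*Vamp3* ran the other way. Of the 15 types, it was highest in oligodendrocytes (196 ± 50.9 CPM), endothelial cells (170 ± 28.4) and pericytes (143 ± 20.4), stood at 135 ± 14.1 CPM in microglia, and fell to 26.2 ± 5.5 CPM in excitatory neurons and 25.8 ± 11.5 CPM in interneurons (SD, n = 6 mice). *Vamp1*, the VAMP of motor and hindbrain synapses, was rare, with 60 UMIs in all neurons and at most 11.4 ± 9.4 CPM in CR cells. Over the 14 subtypes with at least 100 cells, the Pearson correlation of log2(CPM + 1) with *Vamp2* was -0.72 for *Vamp3* and between 0.67 and 0.92 for the other 6 members; the points share depth and mice.

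**Figure D1:**
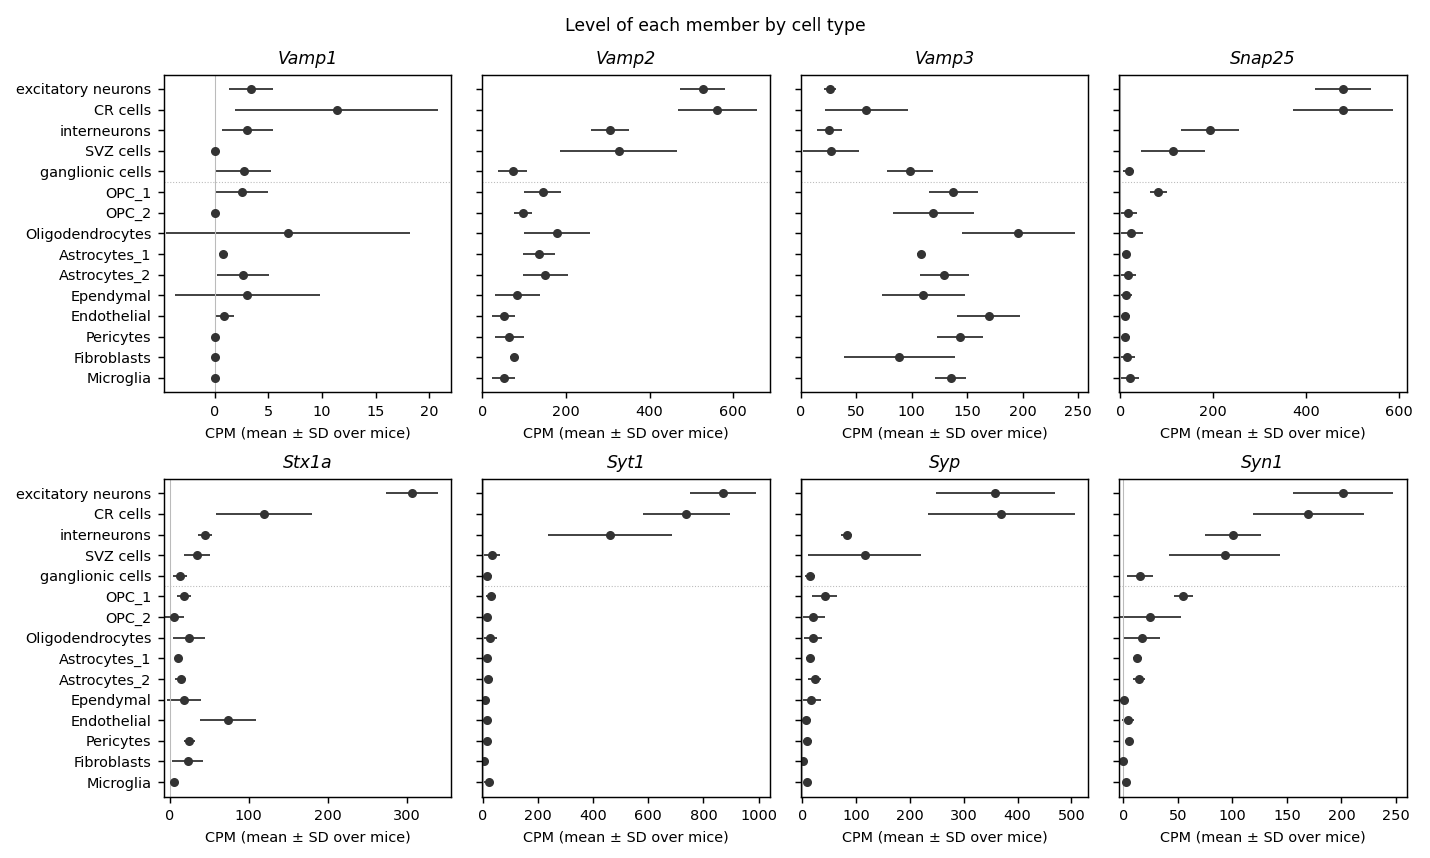
Level of each member (CPM, mean ± SD over the mice with at least 10 cells) in 15 cell types, neuron subtypes above the dotted line. *Vamp3* was highest in oligodendrocytes (196 CPM), and the other 7 members had their highest mean in excitatory neurons or CR cells.

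The Q-SNARE genes were concentrated in excitatory neurons and CR cells. *Snap25*, which encodes the Q-SNARE that supplies a pair of helices to the bundle, stood at 479 ± 60.5 CPM in excitatory neurons and 478 ± 108 CPM in CR cells, and the ranges of both were apart from that of interneurons (193 ± 63.1 CPM). Among glia, *Snap25* was highest in the first subtype of oligodendrocyte precursors, OPC_1, at 81.7 ± 18.8 CPM (59.4 to 107 CPM over 6 mice), against 11.5 ± 8.5 CPM in Astrocytes_1. *Stx1a*, the syntaxin of the plasma membrane, separated excitatory neurons (306 ± 32.8 CPM, lowest mouse 256) from CR cells (120 ± 60.7, highest mouse 219). Endothelial cells ranked above interneurons for *Stx1a*, with 73.7 ± 34.9 against 44.8 ± 9.3 CPM, and the ranges of this pair overlapped.

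*Syt1* split the types sharply. Excitatory neurons (870 ± 121 CPM), CR cells (738 ± 159) and interneurons (462 ± 225) were followed, with a gap between the ranges, by SVZ cells at 31.0 ± 32.4 CPM. *Syp* reached 370 ± 136 CPM in CR cells and 359 ± 111 in excitatory neurons but 82.4 ± 10.4 in interneurons. *Syn1* declined without a gap, from 202 ± 45.6 CPM in excitatory neurons through 101 ± 25.3 in interneurons and 55.1 ± 9.1 in OPC_1 to 2.1 ± 1.4 in microglia (n = 6 mice each). Ganglionic cells, the dividing inhibitory precursors, held all of these 5 genes at 12.8 to 18.2 CPM, next to the levels of astrocytes.

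Detection in single cells also differed between excitatory neurons and microglia once depth was made equal. In cells thinned to 700 UMIs, *Snap25* was detected in 25.0% of excitatory neurons (95% Clopper-Pearson interval 23.2 to 26.9%) and in 1.24% of microglia (0.597 to 2.27%), a type that should lack it, and *Vamp2* in 27.4% (25.6 to 29.4%) and 3.47% (2.32 to 4.98%). Without thinning the shares were 47.9% and 4.2% for *Snap25* and 51.9% and 12.2% for *Vamp2*, at medians of 1274 and 2656 UMIs per cell. The intervals cover counting error only. *Snap25* in microglia differed between mice, from 2.43 to 16.3 CPM in the WT mice and from 6.10 to 46.6 CPM in the *Fmr1*-KO mice, and where these UMIs came from was not tested. *Vamp2* did not keep a fixed ratio to *Snap25*: there were 1.09 *Vamp2* UMIs per *Snap25* UMI in excitatory neurons, 1.73 in interneurons, 2.83 in microglia and 14.7 in Astrocytes_1.

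By likeness of profile over the same 14 subtypes (Pearson's r of log2(CPM + 1) among 11260 genes with at least 500 UMIs), the genes nearest to *Vamp2* were *Rab6b* (0.97) and *Lphn1* (0.96), and near to *Snap25* was the calcium channel gene *Cacna1b* (0.98). *L1cam* (0.99) and *Ndrg4* (0.98) were nearest to *Syt1*, *Scg2* (0.98) and *Atp6v1g2* (0.97) to *Syp*, and *Stmn3* (0.97) and the complexin gene *Cplx1* (0.97) to *Syn1*. For *Stx1a* these were *Cdc42bpb* (0.92) and *Prune* (0.91), for *Vamp3* *Hadha* (0.92) and *Frmd8* (0.92), and for *Vamp1* *Zfp941* (0.92) and *Ap2a1* (0.92). *Stx1a* and both other VAMPs thus had no gene as close as those of the remaining 5 members.

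As a share of the UMIs of *Vamp1*, *Vamp2* and *Vamp3* together, *Vamp2* made up 94.9% in excitatory neurons, 91.2% in interneurons and 88.9% in CR cells. In ganglionic cells the share was 44.4%, and *Vamp3* held 54.0%. Both astrocyte subtypes were near an even split (53.3% and 53.8% *Vamp2*), and *Vamp3* dominated in endothelial cells (81.0%), microglia (75.8%) and pericytes (75.1%). All non-neuronal cells together held 6203 *Vamp2* and 7152 *Vamp3* UMIs.

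**Figure D2:**
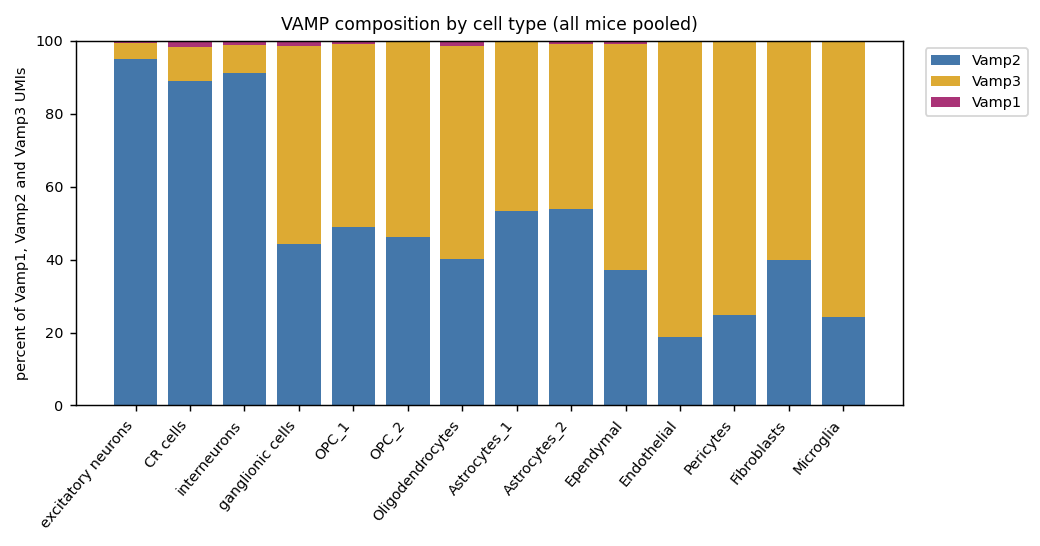
Percent of the *Vamp1*, *Vamp2* and *Vamp3* UMIs that came from each gene, by cell type with at least 100 cells, all mice pooled. *Vamp2* made up 94.9% in excitatory neurons, 44.4% in ganglionic cells and 18.7% in endothelial cells.

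The first genotype comparison asked whether the vesicle genes differ when all neurons of a mouse are summed. Of the 8 members, 6 had a UMI in at least 15% of neurons and were tested, and all 6 were lower in *Fmr1*-KO neurons (as were 49.9% of all genes tested), by 0.26 to 0.54 on the log2 scale; none passed the call threshold, an FDR under 0.01 with a small minimum fold change. *Vamp2* stood at 444, 501 and 459 CPM in WT 1, 2 and 3 and at 332, 302 and 361 CPM in *Fmr1*-KO 1, 2 and 3. The groups did not overlap, with means of 468 ± 29.3 and 332 ± 29.3 CPM (SD, n = 3 each; log2 fold change -0.45, SE 0.10, unadjusted p = 0.00124, FDR 0.117). The log2 ratio was -0.49 within the V2 batch and -0.41 within the V3.8 batch. Each such ratio rests on a single mouse on 1 side, WT 1 in the V2 batch and *Fmr1*-KO 3 in the V3.8 batch.

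*Syt1* showed the largest log2 difference of the 6. It stood at 552, 814 and 886 CPM in WT 1, 2 and 3 against 352, 470 and 543 CPM in *Fmr1*-KO 1, 2 and 3, without overlap (log2 fold change -0.54, SE 0.14, unadjusted p = 0.00307, FDR 0.148; within batches -0.43 and -0.65). *Snap25* stood at 298, 456 and 438 CPM against 237, 218 and 331 CPM, where the V3.8 mouse *Fmr1*-KO 3 lay above WT 1 (-0.41, SE 0.10, unadjusted p = 0.00194, FDR 0.128; within batches -0.39 and -0.43). The vesicle protein gene *Syp* overlapped more widely, at 254, 239 and 223 CPM against 193, 260 and 145 CPM (-0.41, SE 0.16, unadjusted p = 0.0316, FDR 0.275; within batches -0.17 and -0.67). *Stx1a* (-0.27, SE 0.14, unadjusted p = 0.0736) and *Syn1* (-0.26, SE 0.12, unadjusted p = 0.0611) were lower by less, and their groups overlapped.

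In counts, 4 of the 6 members were lower at an unadjusted p under 0.05, against 8.21% of the 3763 genes tested, and 2 of 6 had all *Fmr1*-KO values under all WT values, against 4.76%. The median log2 fold change was -0.41 over the 6 members and 0.00 over all genes tested. None of the 3763 genes passed the call threshold with edgeR (0%), where 617 had an unadjusted p under 0.05, and DESeq2 called 19, no member among them. The count of 4 changed with the mouse left out: 5 without WT 1, 6 without *Fmr1*-KO 2, and 3 without WT 2, WT 3 or *Fmr1*-KO 1. Without *Fmr1*-KO 3 it was 2 (*Vamp2* and *Snap25*), *Stx1a* stood at -0.03 and *Syp* at -0.15. *Fmr1*-KO 3 was the only *Fmr1*-KO mouse of the V3.8 batch, so this fit compared the genotypes within the V2 batch alone. WT 1 was the only WT mouse of the V2 batch, so the fit without it compared them within the V3.8 batch alone. *Vamp3*, below the expression filter, went the other way, with 35.3, 35.99 and 32.8 CPM in WT and 51.5, 45.1 and 38.9 CPM in *Fmr1*-KO neurons. These groups did not overlap either, where 5.16% of the genes that passed the filter had all *Fmr1*-KO values above all WT values. In the equal mix of subtypes below, the *Vamp3* groups overlapped.

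The make-up of the neurons differed between the genotypes in the same comparison. Excitatory cells were 56.8%, 75.3% and 49.5% of the neurons of WT 1, 2 and 3 and 42.0%, 48.6% and 35.6% of those of *Fmr1*-KO 1, 2 and 3. Ganglionic cells, in which the members were low except *Vamp3*, were 10.9 to 13.2% of WT and 18.5 to 23.5% of *Fmr1*-KO neurons, and the 10 markers of dividing cells summed to 1164 to 2009 CPM in WT and 2102 to 3245 CPM in *Fmr1*-KO neurons. By UMIs, excitatory cells supplied 44.6%, 79.8% and 72.2% of the neuronal total in WT and 27.6%, 37.3% and 54.4% in *Fmr1*-KO mice.

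With 59 cells of each of the excitatory, interneuron and ganglionic subtypes drawn from every mouse, the 6 tested members stayed lower and the differences shrank for 5 of 6. *Vamp2* was then at 325, 322 and 389 CPM in WT and 298, 242 and 317 CPM in *Fmr1*-KO mice (log2 fold change -0.21, SE 0.15, unadjusted p = 0.166). *Snap25* moved from -0.41 to -0.09 (SE 0.18), *Syp* to -0.27 (SE 0.19), *Syn1* to -0.18 (SE 0.21) and *Syt1* to -0.32 (SE 0.14, unadjusted p = 0.0290), whereas *Stx1a* stood at -0.30 (SE 0.19). The median of the 6 was -0.24 in place of -0.41, and 1 of 6 had an unadjusted p under 0.05. *Vamp3* overlapped in this mix, at 47.2, 52.0 and 54.6 CPM in WT and 45.7, 53.5 and 46.6 CPM in *Fmr1*-KO mice. The mix was 1 random draw and made cell numbers equal, not UMIs. Excitatory cells had medians of 976, 2005 and 8588 UMIs in WT 1, 2 and 3 and of 1041.5, 991 and 5889.5 UMIs in *Fmr1*-KO 1, 2 and 3. The subtypes thus still differed in weight between mice. In cells summed by mouse, a smaller share of a subtype and less RNA per cell cannot be told apart, which is why the subtypes were compared separately.

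**Figure D3:**
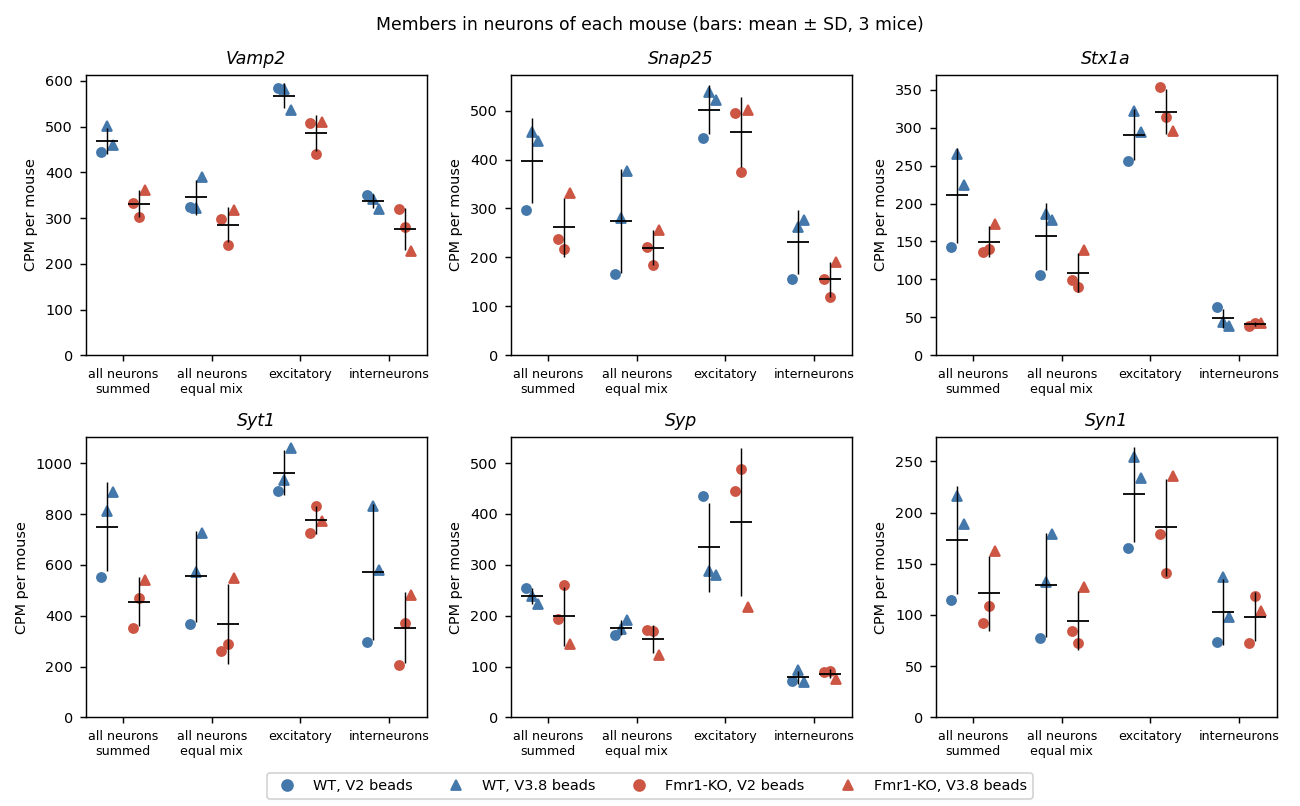
CPM of 6 members in each mouse, for all neurons summed, for an equal mix of 59 cells of 3 subtypes, and for excitatory neurons and interneurons; colour gives the genotype, shape the bead version, and bars the mean ± SD of 3 mice. *Vamp2* did not overlap between the genotypes in any of the 4 settings, which share their mice and many of their cells. Means were 468 and 332 CPM in all neurons and 337 and 276 CPM in interneurons, where WT 3 (319.3) and *Fmr1*-KO 1 (319.25) nearly met. All *Fmr1*-KO values lay under all WT values for 4.76% of genes tested in all neurons, 2.84% in excitatory neurons and 4% in interneurons. That share was not computed for the equal mix.

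Within excitatory neurons the differences were smaller. None of the 6 tested members was called (0% of 3737 genes were), and none had an unadjusted p under 0.05, against 1.55% of genes that were lower at that level and 130 genes that reached it in either direction. *Syt1* held 893, 935 and 1062 CPM in WT 1, 2 and 3 and 727, 834 and 773 CPM in *Fmr1*-KO 1, 2 and 3 (log2 fold change -0.27, SE 0.13, unadjusted p = 0.0521; within batches -0.19 and -0.37). In cells thinned to 700 UMIs it stood at -0.10 (unadjusted p = 0.628). *Vamp2* stood at 585, 582 and 536 CPM against 507, 441 and 510 CPM (-0.21, SE 0.12, unadjusted p = 0.107; within batches -0.30 and -0.13). For both genes the *Fmr1*-KO values all lay under the WT values, which was so for 2.84% of the genes tested. The remaining 4 overlapped: *Snap25* at -0.06 (SE 0.13), *Syn1* at -0.05 (SE 0.14), *Syp* at -0.12 (SE 0.15) and *Stx1a* at +0.16 (SE 0.15). The median over the 6 members was -0.09, against 0.00 over all genes.

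The excitatory values for *Syp* followed the batch more than the genotype. It stood at 435, 445 and 488 CPM in the V2 mice WT 1, *Fmr1*-KO 1 and *Fmr1*-KO 2, and at 287, 281 and 218 CPM in the V3.8 mice WT 2, WT 3 and *Fmr1*-KO 3. *Vamp1* was below the filter, with 5, 9 and 14 UMIs in the excitatory neurons of WT 1, 2 and 3 and 1, 2 and 1 UMIs in those of *Fmr1*-KO 1, 2 and 3, or 5.07 against 1.64 CPM on average. These groups did not overlap either, and counts this low were not tested in the main fit. How many genes below the filter had groups without overlap was not computed.

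Cells in the excitatory subtype with more interneuron and CR marker UMIs than excitatory marker UMIs were 19.6%, 2.73% and 5.69% of those of WT 1, 2 and 3 and 29.5%, 21.3% and 11.1% of those of *Fmr1*-KO 1, 2 and 3. Without them, *Vamp2* moved to -0.10 (SE 0.13, unadjusted p = 0.456), while *Syt1* stood at -0.25 (SE 0.13, unadjusted p = 0.0731) and *Snap25* at -0.01 (SE 0.13). This alternative was chosen after the marker values had been seen.

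In interneurons, 4 members passed the expression filter and none was called (0% of 3177 genes). *Vamp2* stood at 349, 342 and 319 CPM in WT 1, 2 and 3 and at 319, 281 and 227 CPM in *Fmr1*-KO 1, 2 and 3. The highest *Fmr1*-KO mouse lay just under the lowest WT mouse (log2 fold change -0.34, SE 0.14, unadjusted p = 0.0277, FDR 0.998; within batches -0.22 and -0.54). It was the 1 of 4 members lower at an unadjusted p under 0.05, against 2.39% of genes, and the 1 of 4 without overlap, against 4% of genes. Leaving out *Fmr1*-KO 3, the only V3.8 mouse of its genotype, gave -0.19 (unadjusted p = 0.317), a comparison within the V2 batch alone. Without *Fmr1*-KO 2 or WT 3 the p was 0.0504 and 0.0658. The 10 markers of dividing cells summed to 345 to 435 CPM in WT and 465 to 493 CPM in *Fmr1*-KO interneurons, and their part in the result was not tested.

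*Snap25* was at 156, 261 and 276 CPM in WT and at 156, 119 and 191 CPM in *Fmr1*-KO interneurons, with overlap (-0.32, SE 0.17, unadjusted p = 0.0761; -0.15 to -0.51 on leaving out 1 mouse). *Syt1* spread over the widest range, from 299 to 834 CPM in WT and from 205 to 482 CPM in *Fmr1*-KO mice (-0.28, SE 0.20, unadjusted p = 0.183; -0.05 to -0.52 on leaving out 1 mouse), and WT 2, with the highest value, had the fewest interneurons (59). *Syn1* stood at +0.16 (SE 0.24) with group means of 103 CPM in WT and 98.3 CPM in *Fmr1*-KO mice, and its sign turned without WT 1 (-0.083) or *Fmr1*-KO 2 (-0.051). The members below the filter, *Stx1a*, *Syp*, *Vamp1* and *Vamp3*, overlapped between the genotypes. The median over the 4 tested was -0.30, against 0.00 over all genes. It was -0.10 without *Fmr1*-KO 3, -0.50 without WT 1 and -0.03 in cells thinned to 700 UMIs, where *Snap25* stood at -0.06 and *Syt1* at -0.0042.

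Whether the genotype difference itself differed between interneurons and excitatory neurons was tested with the mouse as a block. No member was called (0% of 2724 genes). The difference of the log2 fold changes, interneurons minus excitatory neurons, was -0.42 for *Snap25* (SE 0.24, unadjusted p = 0.0991), -0.34 for *Syt1* (SE 0.35, unadjusted p = 0.344), -0.09 for *Vamp2* (SE 0.22, unadjusted p = 0.690) and +0.21 for *Syn1* (SE 0.29, unadjusted p = 0.480).

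**Figure D4:**
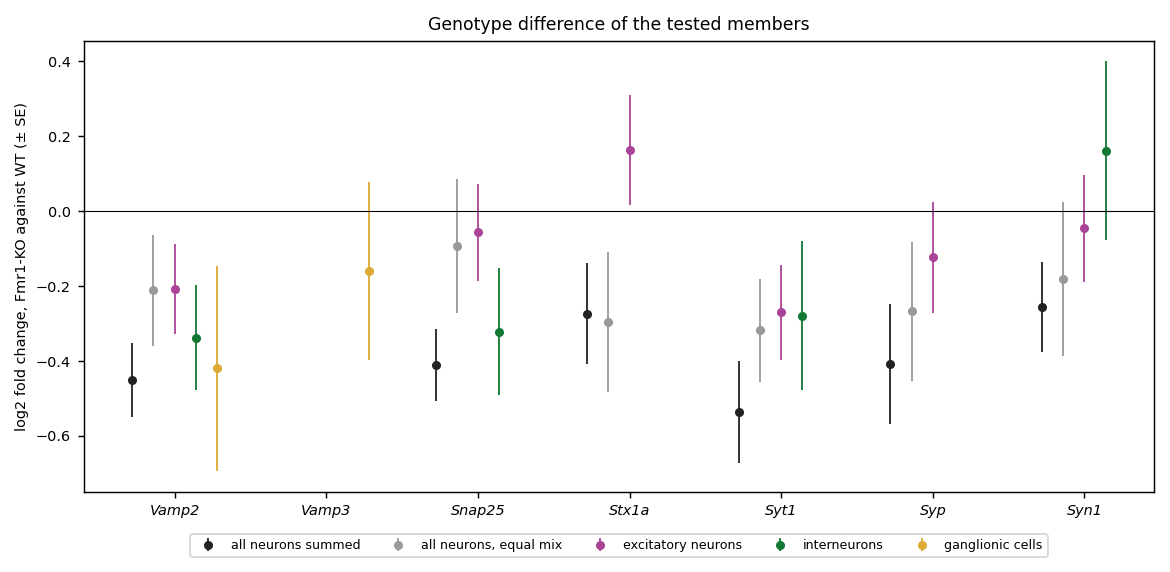
Log2 fold change of *Fmr1*-KO against WT (points) with its SE (bars) for the members that passed the expression filter, in all neurons summed, in an equal mix of 3 subtypes, and in each subtype. *Vamp2* was lower in each of the 5 settings, from -0.21 to -0.45, and *Snap25* moved from -0.41 in all neurons to -0.06 in excitatory neurons.

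Ganglionic cells expressed too little of most members for a test, and *Vamp2* and *Vamp3* passed the filter. *Vamp2* stood at 123, 53.5 and 43.6 CPM in WT 1, 2 and 3 and at 108, 65.0 and 43.9 CPM in *Fmr1*-KO 1, 2 and 3, so that the V2 mice WT 1 and *Fmr1*-KO 1 were high in both genotypes (log2 fold change -0.42, SE 0.27, unadjusted p = 0.135). *Vamp3* was at 91.8, 90.5 and 139 CPM against 88.6, 80.5 and 99.998 CPM (-0.16, SE 0.24, unadjusted p = 0.503). Neither was called, against 0.0499% of the 4009 genes tested, 0 of 2 were lower at an unadjusted p under 0.05 (2.92% of genes), and 0 of 2 were without overlap (4.34% of genes). The plain *Vamp2* means were 73.4 CPM in WT and 72.4 CPM in *Fmr1*-KO mice. All these values rest on 11 to 57 UMIs per mouse and gene. The *Vamp2* value was -0.14 without WT 1 and -0.17 without *Fmr1*-KO 2.

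Taken over both batches, the share of *Vamp2* among VAMP UMIs did not separate the genotypes. In excitatory neurons it was 95.7%, 94.5% and 95.5% in WT 1, 2 and 3 and 94.5%, 92.2% and 95.3% in *Fmr1*-KO 1, 2 and 3 (means 95.2 ± 0.66 and 94.0 ± 1.63, two-sided exact permutation p = 0.30). In interneurons it was 94.8%, 93.2% and 92.6% against 85.4%, 93.6% and 88.4% (93.5 ± 1.12 and 89.2 ± 4.16, exact permutation p = 0.30). In ganglionic cells the means were 39.3 ± 17.0% and 42.4 ± 12.1% (exact permutation p = 0.80). With 3 mice against 3 this test cannot give a p below 0.10, and it takes no account of the batch. Within each batch the *Fmr1*-KO interneuron shares lay under the WT shares, which was not so in excitatory neurons or ganglionic cells.

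In the 7 non-neuronal types with at least 100 cells per genotype, 13 tests of members were possible, mostly of *Vamp2* and *Vamp3*. None was called, against 0.0143% of all tests there, and 1 of 13 had an unadjusted p under 0.05, against 5.13%. That was *Vamp2* in Astrocytes_1, at 182, 121 and 105 CPM in WT 1, 2 and 3 and at 145, 175 and 86.2 CPM in *Fmr1*-KO 1, 2 and 3 (log2 fold change -0.28, SE 0.11, unadjusted p = 0.0334, FDR 0.924; 2.47% of genes were lower at that level). The groups overlapped, since the V2 mice were higher in both genotypes, and the value was -0.01 without the batch term and 0.00 in cells thinned to 700 UMIs. *Vamp3* in microglia was at 151, 143 and 149 CPM in WT and at 119, 127 and 122 CPM in *Fmr1*-KO mice, without overlap (3.72% of genes; -0.26, SE 0.23, unadjusted p = 0.261). *Snap25* in OPC_1 stood at -0.23 (SE 0.16) and *Stx1a* in endothelial cells at -0.11 (SE 0.30), where the batches went opposite ways (+0.73 and -0.92).

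With the batch as a covariate, the log2 fold change of *Vamp2* was below zero in each of the 7 cell types in which it was tested, with a median of -0.27 over excitatory neurons, interneurons, ganglionic cells, both astrocyte subtypes, OPC_1 and oligodendrocytes. Of the 2095 genes tested in the same 7 types, 3.1% were lower in all 7. The types share their mice and libraries and are not independent. The plain means went the other way in 3 types, where *Fmr1*-KO mice were above WT mice: Astrocytes_2 (155 and 147 CPM), OPC_1 (148 and 140 CPM) and oligodendrocytes (192 and 166 CPM). They were nearly equal in ganglionic cells (72.4 CPM in *Fmr1*-KO and 73.4 CPM in WT mice) and in Astrocytes_1 (135 and 136 CPM). The sign was not kept in ganglionic cells under the replicate block (0.00079) or in Astrocytes_1 after thinning (0.00060). In Astrocytes_2 the sign held in the V3.8 batch (-0.71) and not in the V2 batch (+0.02).

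The wider machinery was read from a list of 165 further genes in 7 groups, 162 of them in the table. In all neurons summed, 72 were tested, 63 of them lower in *Fmr1*-KO mice, against 49.9% of all genes tested. Of the 72, 15 were lower (8.21% of all genes) and 0 higher at an unadjusted p under 0.05, none at FDR under 0.01, and the median was -0.15 against 0.00 over all genes. Vesicle membrane proteins (13 of 14 lower, median -0.24), synapsins and active zone genes (12 of 12, -0.21) and SNARE regulators (12 of 14, -0.14) leaned the same way, as did endocytosis genes (15 of 17, -0.12), Q-SNAREs (7 of 9, -0.11) and synaptotagmins (3 of 4, -0.27), while 1 of 2 further R-SNAREs was lower (median 0.00). By the smallest p, *Sncb* (β-synuclein, a chaperone-like presynaptic protein) was at 227 ± 100.1 CPM in WT and 121 ± 90.3 CPM in *Fmr1*-KO neurons (-0.50, SE 0.11, unadjusted p = 0.00139) and *Snap91* (the clathrin adaptor AP180) at -0.38 (SE 0.10, unadjusted p = 0.00458).

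Within subtypes this lean was not there. In excitatory neurons 41 of 78 tested genes of the wider list were lower (median -0.02; 48.9% of all genes were lower), 0 were lower and 1 higher at an unadjusted p under 0.05, the active zone gene *Ppfia3* (55.8 ± 7.03 CPM in WT and 74.0 ± 8.09 CPM in *Fmr1*-KO mice; +0.39, SE 0.17, unadjusted p = 0.0433). In interneurons 29 of 55 were lower (median -0.01; 49.1% of all genes), and those past an unadjusted p of 0.05 were the clathrin assembly gene *Picalm* (+0.52, SE 0.21, unadjusted p = 0.0215) and the endocytic gene *Amph* (-0.45, SE 0.20, unadjusted p = 0.0380). In ganglionic cells 18 of 38 were lower (median 0.01; 50.1% of all genes), and *Stx6*, a syntaxin of the trans-Golgi network, stood at 164, 181 and 147 CPM in WT and 110, 107 and 95.1 CPM in *Fmr1*-KO mice (-0.67, SE 0.20, unadjusted p = 0.00241, FDR 0.597). *Atp6ap2*, an accessory subunit of the vesicular proton pump, was also lower there (-0.81, SE 0.30, unadjusted p = 0.0101, FDR 0.772).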

How the data were processed

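Reads had been aligned by the authors to mm10 with TopHat2 2.0.14 and counted with ESAT over RefSeq genes, ignoring reads with several positions, and the deposited values are raw UMI counts per gene and cell. Cell types and doublet marks were also deposited by the authors and used as given, and their scran size factors, a ratio for each cell, served in 1 alternative. The members and gene lists were chosen with earlier results of these data known.

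Counts were summed per mouse and type (mice with at least 10 cells) and tested with edgeR 4.0.16 (quasi-likelihood, TMM, batch as covariate, R 4.3.3) where 15% or more of the cells held a UMI of the gene, adjusted by Benjamini-Hochberg over all genes of the type; called genes had FDR under 0.01 and at least 1.15-fold. Within-batch ratios used 0.5 CPM added and, with a single mouse on 1 side, carry no measure of spread. DESeq2 1.42.0, other filters, thinning to 700 UMIs and leaving out each mouse were alternatives. WT 1 was the only V2 mouse of its genotype and *Fmr1*-KO 3 the only V3.8 mouse of its genotype. With the batch as covariate, a genotype fit without either of them therefore rested on the other batch alone. The p-values of these genotype fits set the genotype difference, after the batch term, against the spread left between mice (3 per genotype). That spread was estimated with information shared across genes. The model was tested on simulated counts in which 200 genes changed 2-fold. It recovered 95% of them in all neurons, 88% in excitatory neurons, 76.5% in interneurons and 49.5% in ganglionic cells. For the difference between interneurons and excitatory neurons it recovered 35.5%. The simulation had a fixed spread and no batch effect, and smaller changes, such as those of the members, were not simulated. Named genes were the members, *Fmr1*, subtype markers, up to 3 genes of the wider list per neuron comparison (smallest p under 0.05, same sign in both batches) and the 2 genes most like each member; some genes that this rule picks are not reported here.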

Additional observations from a re-analysis of the deposited data

How the results depend on the processing

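Of 352 alternative values, 335 were scored as the same. Counts of called members were compared by number, *Vamp2* shares by sign, and fold changes by sign and side of the threshold. No member was called in the main fits, so an unchanged count or side of the threshold says little about robustness. Without any expression filter 1 member, *Syt1*, was called in all neurons summed (log2 fold change -0.55, FDR 0.00169); counts in the other comparisons stayed at 0. The replicate numbers did not pair the mice (same-numbered deviations correlated at 0.78, -0.50 and 0.80 in neurons, number 2 joining mice of different batches); under the replicate block no member was called (0), *Syp* in excitatory neurons turned to 0.18, *Syn1* in interneurons to -0.032 and *Vamp2* in ganglionic cells to 0.00079. Without the batch term excitatory *Syp* was 0.24, after thinning to 700 UMIs excitatory *Stx1a* was -0.077, and without marker-discordant cells, an alternative added after seeing the data, excitatory *Syn1* was 0.061. Leaving out 1 mouse at a time, excitatory values ran from -0.13 to 0.0087 for *Snap25*, -0.060 to 0.38 for *Stx1a*, -0.38 to 0.11 for *Syp* and -0.10 to 0.0089 for *Syn1*, and interneuron *Syn1* from -0.083 to 0.37. These ranges include the fits without WT 1 or without *Fmr1*-KO 3, each of which compared the genotypes within a single batch. They therefore mix the weight of 1 mouse with differences between the batches. In all neurons summed, 617 genes had an unadjusted p under 0.05, against 191 without the batch term, 305 after thinning, 377 with DESeq2, 142 in the equal mix, and 1806 without a filter, where more genes were tested and 155 were called. The difference in *Vamp2* share, *Fmr1*-KO minus WT, was 3.10 percentage points in ganglionic cells and -4.84 to 12.1 on leaving out 1 mouse, and in excitatory neurons it turned from -1.20 to 1.64 points after thinning; the causes were not tested. Members below 15% of cells, the ganglionic values and the shares are limited by depth.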
